A study of Oryza sativa with 4 samples.

Results

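The genes described here are 60 rice genes whose array signal was higher in M202(Sub1) than in M202 by a similar amount after 1 day and after 6 days under water. They were chosen by measured values: the log2 difference between the genotypes (M202(Sub1) minus M202) had to be at least 0.8 at each time, and the 2 differences had to lie less than 1 apart. A gene also needed a signal at or above the median of all values (5.51, called the level floor here) on at least 1 array. The 60 genes are 0.389% of the 15426 genes above that floor, and 17905 genes had a probe set in all. A further 11 genes met the same limits but were left out by name (pyruvate decarboxylase, alcohol dehydrogenase, pyruvate orthophosphate dikinase, heat shock, hemoglobin, aquaporin, IAA and SMR genes) or because they lay in the interval of gene numbers from LOC4339880 to LOC4340140. Since the genotype differences chose the genes, those values are a description and were not tested.

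The study compared shoots of soil-grown rice (Oryza sativa) seedlings, 18 days old, held fully under water in a greenhouse. M202 is a japonica cultivar that tolerates flooding poorly, and M202(Sub1) is a near-isogenic line carrying an introgressed Sub1 locus. Each of the 4 groups (M202 at 1 day, M202 at 6 days, M202(Sub1) at 1 day, M202(Sub1) at 6 days) was measured on 1 Affymetrix array, with no replicate. All groups were submerged, so no dry control enters any comparison, and nothing in the labels says how many plants made up a sample. With 1 array per group no difference has a replicate check, no p-value is given, and the number of arrays limits the precision.

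Sub1 is a locus on chromosome 9 that holds genes of ethylene response factors. Lines with the tolerance allele restrain shoot elongation under water and save carbohydrate for regrowth, whereas intolerant plants elongate and use up reserves. Gibberellin drives that elongation, and submergence raises its action through ethylene. Near-isogenic lines share most of their genome but can also differ in stretches that came along with the introgressed locus. The genes of the Sub1 locus were not analysed here.

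The median log2 signal of the 4 arrays lay between 5.48 and 5.54. Of 12 shoot marker genes, among them genes of light-harvesting and Rubisco proteins, 11 were at or above the floor on each array. Their summed level, on a log2 scale, was 16.74 in M202 and 16.67 in M202(Sub1) at 1 day, then 16.25 in both at 6 days. Of 5 root marker genes 4 were at or above the floor on each array, with a summed level from 12.72 to 13.19, and of 10 seed marker genes 3 or 4 were, with a summed level from 11.23 to 11.41. The signal at the 3′ end of actin exceeded that at its 5′ end by 3.12 on both M202 arrays, by 3.32 on the M202(Sub1) 1-day array and by 3.46 on the M202(Sub1) 6-day array. For the GAPDH control the 3′ excess was the larger one in M202, at 0.91 and 1.16 against 0.70 and 0.65 in M202(Sub1), and EF1a ran from -2.60 to -2.17, but the signals of both controls were under the floor. The part of these quantities in the results was not tested. In a bulk shoot sample, fewer cells of a type and less RNA per cell cannot be told apart.

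The 60 genes differed between the genotypes by a median log2 value of 1.22 at 1 day and 1.43 at 6 days, which are 2.33-fold and 2.69-fold. The differences ran from 0.81 to 4.29 at 1 day and from 0.80 to 4.60 at 6 days. Averaged over both times, 11 genes were apart by 2 or more, 9 by 1.5 to 2 and 40 by less than 1.5, so most of the group lies close to its lower limit. At least 2-fold at both times were 39 of them, against 0.434% of all genes above the floor, a share that the choice of genes fixes. The difference was larger at 6 days in 34 genes and larger at 1 day in 26, and the median size of the gap was 0.34.

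**Figure D1:**
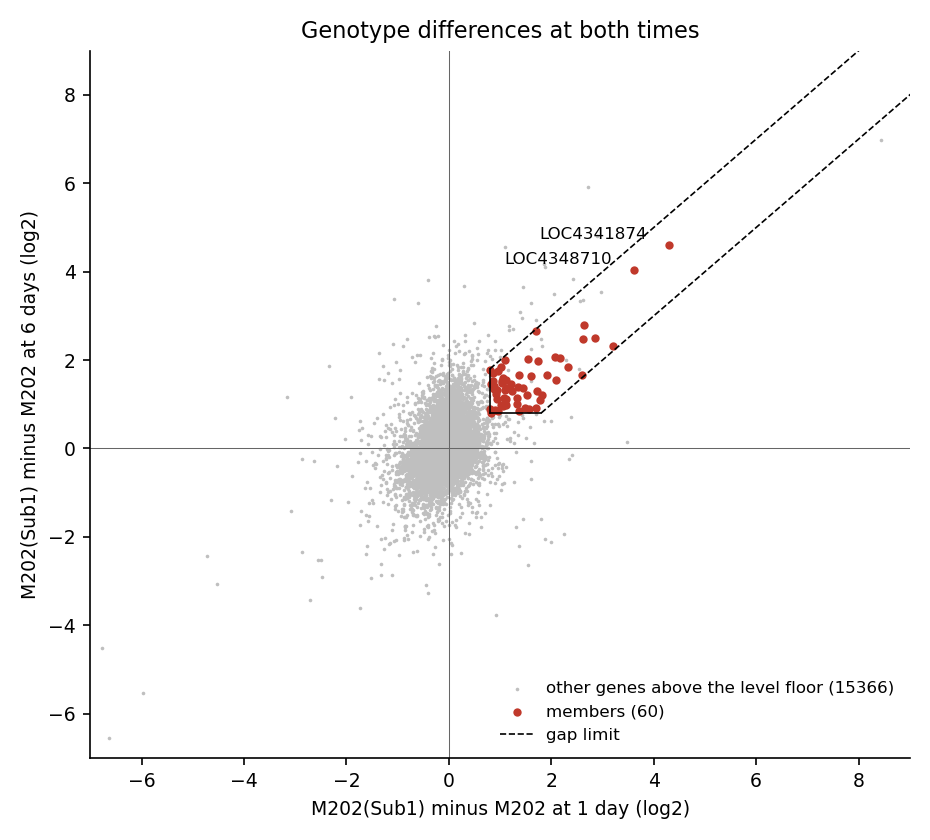
Log2 difference M202(Sub1) minus M202 at 1 day (x axis) and at 6 days (y axis) for genes above the level floor, 1 point per gene. The 60 members (red) lie between the solid lower limits and the dashed lines of the gap limit, and most of them crowd near the lower corner. Grey points inside these lines are the 11 genes left out by name or interval.

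At the lower limit, LOC4337397 had differences of 0.82 and 0.80, LOC4334346 of 0.81 and 0.88, and LOC4329253 of 0.81 and 1.78. Just outside it, LOC4326358 had 0.80 at 1 day (under the limit before rounding) and 1.64 at 6 days, LOC4324218 had 0.79 and 1.79, and LOC9266485 had 0.78 and 1.41. The members with the widest gap were LOC4329253, at 0.97, and LOC4345848, at 0.96. The nearest gene beyond the gap limit was LOC4327887, with differences of 1.01 and 2.07. Genes on either side of these limits have nearly the same values, and the edge of the group is a matter of the limits chosen.

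Only 6 of the 60 genes carry a symbol or synonym that says what they encode, and the other 54 have a gene number alone in the annotation used. The named ones touch hormone synthesis, cell wall synthesis, DNA replication, transcription and calcium signalling.

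GA20OX2 (LOC4325003, chromosome 1) encodes a gibberellin 20-oxidase, an enzyme of the last steps of gibberellin synthesis, and is known as the semidwarf gene sd1 of rice. Its log2 signal was 8.28 in M202 and 9.34 in M202(Sub1) at 1 day, then 6.86 and 7.83 at 6 days. The line with Sub1 was higher at each time, by 1.06 and 0.97, while both genotypes were lower at 6 days. Even so, the M202(Sub1) value at 6 days was below the M202 value at 1 day. GA20OX3 was the only other gene with a probe set found by a GA20OX symbol or synonym, and it went the other way with time. It stood at 8.09 and 8.20 at 1 day and at 9.90 and 9.19 at 6 days, in M202 and M202(Sub1) in that order. Its genotype differences were 0.11 and -0.71.

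CslF8 (LOC4343552, chromosome 7) belongs to the cellulose synthase-like F family, whose members make mixed-linkage glucan of grass cell walls. It was a weakly expressed gene, with 6.03 in M202 and 7.06 in M202(Sub1) at 1 day, then 4.46 and 5.99 at 6 days. The M202 value at 6 days is under the floor, so the 6-day difference of 1.53 is uncertain in size. Of the other CSLF genes, CSLF2 and CSLF6 were above the floor, and their genotype differences lay between -0.35 and -0.08 at 1 day and between -0.16 and -0.11 at 6 days. CSLF6, which encodes the main mixed-linkage glucan synthase of rice, was at 11.04 and 10.70 at 1 day.

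ORC4 (LOC4324139, chromosome 1) encodes a subunit of the origin recognition complex, which marks the sites where DNA replication starts. It stood at 6.89 in M202 and 8.0 in M202(Sub1) at 1 day, then at 6.29 and 7.67 at 6 days. It was therefore higher in M202(Sub1) by 1.11 and 1.38, and its second probe set, at lower signal, gave 1.13 and 1.63. The name of the first probe set ends in _s_at, which marks possible cross-hybridisation with other genes. That of the second ends in _a_at, which marks transcripts of the same gene. The other 4 genes found by an ORC symbol or synonym differed by only -0.25 to 0.03 at 1 day. At 6 days ORC1 (1.44) and ORC3 (1.88) were higher in M202(Sub1), ORC5 was at 0.59 and ORC2 at -0.13. At 1 or more these are 2 of the 4 at 6 days, against 3.85% of all genes, and 0 of the 4 at 1 day, against 0.778%. On the M202 6-day array ORC1, ORC3 (3.965) and ORC5 (5.07) were under the floor, so the sizes of their 6-day differences are uncertain. On the 1-day and 6-day arrays ORC1 read 6.84 and 5.12 in M202, against 6.82 and 6.56 in M202(Sub1), so the 6-day difference of this subunit sits with its low value on the M202 6-day array. ORC4 had its genotype difference already at 1 day, as the choice of genes requires, so this sets it apart from its relatives by selection.

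PCF6 (LOC4334346, chromosome 3) encodes a transcription factor of the TCP family, plant regulators of cell division and leaf growth. Its signal was 8.28 in M202 and 9.09 in M202(Sub1) at 1 day, then 7.97 and 8.85 at 6 days. At 0.81 and 0.88 it was among the genes closest to the lower limit. The 6 other PCF genes lay between -0.50 and 0.46 at 1 day, and all were above 0 at 6 days, from 0.07 to 2.03. The median of all genes above the floor was 0.002 at 6 days, and no shift of the family was tested. PCF3 was under the floor in M202 at 6 days (5.46). PCF5, at 2.03, was the only 1 of the 6 to reach 2-fold at 6 days, against 3.85% of all genes. It had 9.59 (1 day) and 7.45 (6 days) in M202 against 10.04 and 9.48 in M202(Sub1).

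CIPK12 (LOC4325613, chromosome 1) encodes a protein kinase that is switched on by calcineurin B-like calcium sensors. It was at 7.07 in M202 and 7.89 in M202(Sub1) at 1 day, then at 4.84 and 6.30 at 6 days, the M202 value at 6 days being under the floor. The differences were 0.82 and 1.45. A second probe set of the gene, at 5.07 and 5.94 at 1 day, gave 0.87 and 0.55, and with the mean of both sets the time difference in M202 was -1.33 instead of -2.22. Among 21 other CIPK genes above the floor none was 2-fold apart at 1 day, where 0.778% of all genes were higher and 1.01% lower. At 6 days CIPK6 alone reached 2-fold (1.31), against 3.85% of all genes higher. The medians of these 21 genes were 0.01 and 0.10.

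C3H37 (LOC4339379, chromosome 5) encodes a CCCH zinc finger protein, a family whose members often bind RNA. It was among the 5 members with the highest signal, with 12.02 (1 day) and 11.80 (6 days) in M202 against 13.25 and 13.10 in M202(Sub1). The genotype difference was 1.24 and 1.30, and the time differences stayed within 0.22. Of 43 other C3H genes above the floor, C3H2 reached 2-fold at 1 day (1.17, with 0.66 at 6 days). At 6 days C3H22 (1.34) and C3H23 (1.5) were, with 0.11 and -0.04 at 1 day. These are 1 of 43 at 1 day, against 0.778% of all genes, and 2 of 43 at 6 days, against 3.85%. No relative above the floor was 2-fold lower in M202(Sub1) at either time, among 43 C3H, 21 CIPK, 6 PCF, 4 ORC, 2 CSLF and 1 GA20OX genes. Of all genes 1.01% were at 1 day and 2.18% at 6 days. With so few relatives and such low shares, no result about the families is drawn from this.

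**Figure D2:**
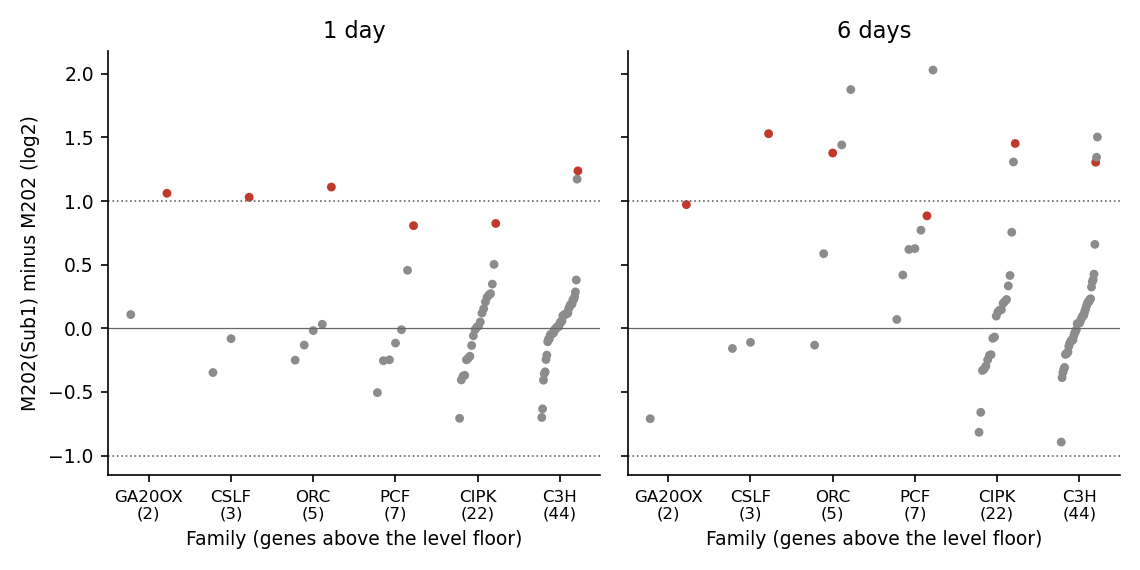
Log2 difference M202(Sub1) minus M202 at 1 day (left) and 6 days (right) for the genes above the level floor in the families of the 6 named members, 1 point per gene, ordered within each family. Members are red and relatives grey; dotted lines mark a 2-fold difference, and at 1 day C3H2 is the only relative past it.

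The largest differences belonged to genes without a descriptive name. LOC4341874 on chromosome 6 read 8.40 (1 day) and 7.47 (6 days) in M202 against 12.69 and 12.08 in M202(Sub1). That is a difference of 4.29 and 4.60, or 19.6-fold and 24.3-fold. LOC4348710 on chromosome 10 was at 9.87 and 8.79 in M202 and at 13.48 and 12.83 in M202(Sub1), 3.62 and 4.04 apart. Both genes were well above the floor in M202 as well, and both were among the strongly expressed genes of M202(Sub1).

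Among the genes above the floor on all 4 arrays, LOC4325140 on chromosome 1 came next, with 9.10 and 8.56 in M202 against 11.74 and 11.36 in M202(Sub1). LOC4338661 on chromosome 5 was at 7.61 and 6.16 against 10.24 and 8.64. In each of these genes the lower M202(Sub1) value exceeded the higher M202 value. LOC4351869 on chromosome 12 was nearly flat in time, at 7.33 and 7.39 against 9.51 and 9.43. LOC4352495, also on chromosome 12, was at 7.75 and 8.26 in M202 and at 10.08 and 10.10 in M202(Sub1).

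LOC4338958 (4.58 and 3.68 in M202, 7.78 and 5.99 in M202(Sub1)), LOC4326487 (4.98 and 4.82, 7.82 and 7.31) and LOC4334529 (4.68 and 4.64, 6.41 and 6.63) lay under the floor in M202 at both times. For these genes the signal was measured above the floor in M202(Sub1) alone, and the size of the difference is uncertain. Of the 60 genes, 7 lay under it on both M202 arrays, 10 on 1 of them, and 43 were above it on all 4 arrays. On M202(Sub1) arrays 4 genes had a value under the floor, among them 3 of the 5 members of lowest mean signal, LOC4330176, LOC4349821 and LOC4350974. RMA, the method behind these values, compresses differences near background.

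**Figure D3:**
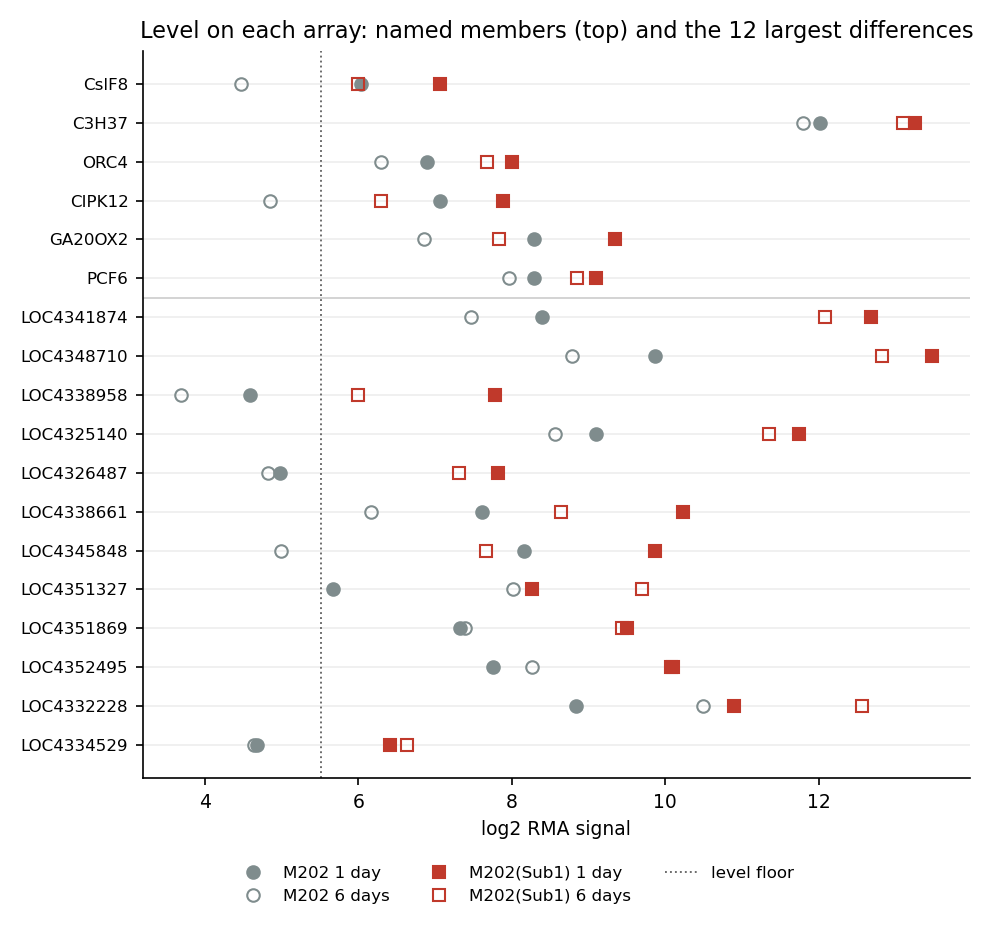
Log2 RMA signal on each of the 4 arrays for the 6 members with a descriptive name (upper rows) and the 12 members with the largest mean genotype difference (lower rows). Circles are M202 and squares M202(Sub1), filled at 1 day and open at 6 days; the dotted line is the level floor of 5.51. At each time the square lies to the right of the circle, as the choice of genes requires.

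High signal in both genotypes was seen for LOC4327719, at 12.03 and 12.90 in M202 and 13.75 and 14.19 in M202(Sub1), whose single probe set is marked for possible cross-hybridisation. LOC4346226 was at 11.78 and 10.57 against 12.83 and 12.15, and LOC4332840 at 10.96 and 10.48 against 11.89 and 11.80. The set used for LOC4332840 carries the same mark, and the name of that for LOC4346226 ends in _a_at. The 25 members not named by the rule for named genes had genotype differences of 0.86 to 1.91 at 1 day and 0.85 to 2.01 at 6 days. Their mean signal ran from 5.74 to 11.24, and their time differences lay between -1.72 and 0.38 in M202 and between -1.49 and 0.66 in M202(Sub1). The median of the mean signal was 8.54 over the 60 genes and 9.10 over all genes above the floor.

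How these genes differed between 1 and 6 days is a separate contrast, whose direction the choice of genes did not set. It is not free of it, since the same arrays enter both contrasts and the gap limit keeps the time differences of the genotypes less than 1 apart. The median time difference (6 days minus 1 day) was -0.37 in M202 and -0.27 in M202(Sub1), against -0.02 and 0.01 over all genes above the floor. In each genotype 40 of the 60 genes were lower at 6 days, or 66.7%, compared with 51.5% of all genes in M202 and 48.7% in M202(Sub1). In M202, 13 genes were at least 2-fold lower at 6 days (21.7%, against 8.62% of all genes) and 5 at least 2-fold higher (8.33%, against 7.44%). In M202(Sub1) the counts were also 13 (against 4.61% of all genes) and 5 (against 6.25%). Plant age and any other change between the harvests cannot be told apart from the length of submergence.

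Both genotypes were at least 2-fold lower at 6 days in 8 genes, against 3.10% of all genes, and 3 of the 6 named members were among them: GA20OX2 (-1.43 in M202 and -1.52 in M202(Sub1)), CIPK12 (-2.22 and -1.59) and CslF8 (-1.56 and -1.06). LOC4345848 on chromosome 8 had the largest such differences. Its M202 signal was 8.16 at 1 day and 4.99 at 6 days, and that of M202(Sub1) was 9.86 and 7.66, with the 6-day M202 value under the floor. LOC4350786 was lower at 6 days by a similar amount in each genotype, 5.94 and then 4.46 in M202 against 6.91 and then 5.30 in M202(Sub1), with both 6-day values under the floor. LOC4338661 differed by -1.46 and -1.59. In each of these genes the M202(Sub1) shoots had more signal than M202 shoots at 6 days but less than they had at 1 day.

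Higher at 6 days by at least 2-fold in both genotypes were 5 genes, against 4.83% of all genes. LOC4334644 on chromosome 3 had 6.47 at 1 day and 10.33 at 6 days in M202, and 8.16 and 11.25 in M202(Sub1). Its single probe set is marked for possible cross-hybridisation. LOC4333712, also on chromosome 3, had 7.61 and 10.29 against 8.72 and 11.83. LOC4324781 on chromosome 1 had 5.18, under the floor, and 7.53 in M202 against 7.26 and 9.08 in M202(Sub1). The other two were LOC4351327 (2.36 in M202 and 1.42 in M202(Sub1)) and LOC4332228 (1.66 in each). In LOC4351327, LOC4334644 and LOC4324781 the genotype difference was smaller at 6 days than at 1 day, and in LOC4333712 it was larger, while in LOC4332228 it was 2.07 and 2.08.

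A time difference under 0.5 in both genotypes was found in 19 genes (31.7%, against 53.1% of all genes), C3H37 and PCF6 among them. Of the rest, 5 were at least 2-fold lower at 6 days in M202 alone (against 5.52% of all genes), among them LOC4348710, and 5 in M202(Sub1) alone (against 1.51%), among them LOC4338958. Each of these genes was also lower at 6 days in the other genotype, by less than 2-fold, so the split rests on the limit. Both M202 values of LOC4338958 were under the floor. Under the same limits in the opposite direction, 78 genes were lower in M202(Sub1) at both times. Their median time differences were 0.19 in M202 and -0.09 in M202(Sub1), and by 2-fold or more, 19 of them had the higher signal at 6 days in both genotypes and 9 the lower. The contrast between these groups of genes was not tested.

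**Figure D4:**
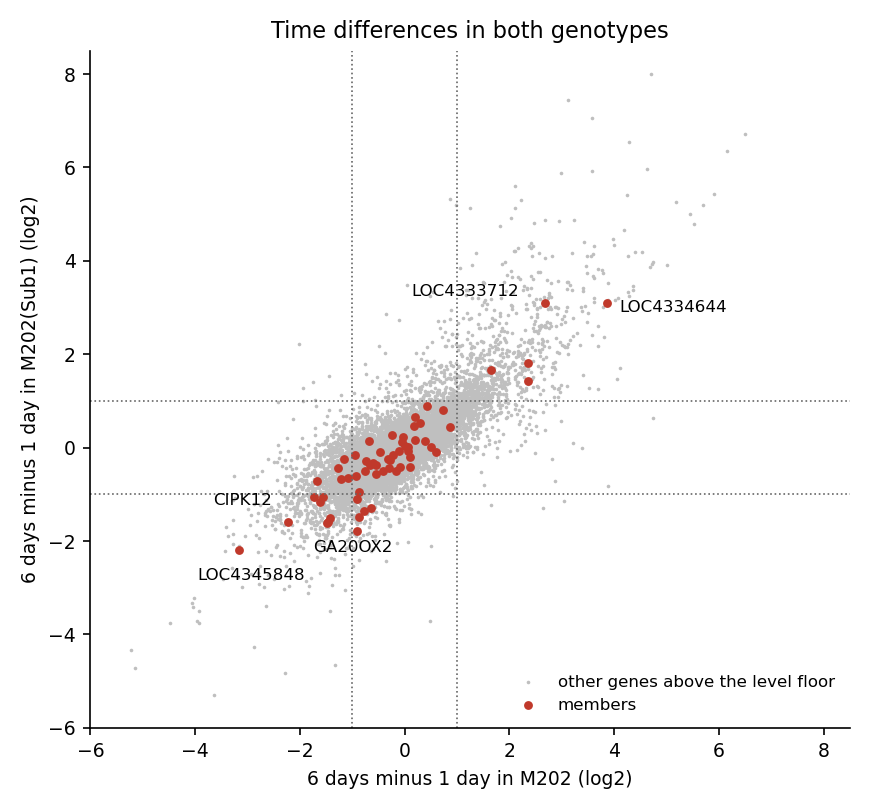
Log2 difference 6 days minus 1 day in M202 (x axis) and in M202(Sub1) (y axis), 1 point per gene above the level floor, with the 60 members in red. Dotted lines mark 2-fold differences; 8 members lie in the lower left corner and 5 in the upper right.

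The 60 genes lay on 11 of the 12 chromosomes. Chromosomes 1 and 3 held 13 each, which is 0.566% and 0.595% of their genes above the floor, and chromosome 4 held 6, or 0.444%. Chromosome 7 held 1, CslF8. Chromosome 6 held 4 of 1202, or 0.333%. The interval of gene numbers left out lies on this chromosome. Genes there that met the limits are not counted as members, though they stay among the 1202. Chromosome 9, which carries Sub1, held 0 among 831 genes above the floor, against 0.389% over all chromosomes. Without the gap limit it held 2. Of the 78 genes of the opposite direction, among 15426 genes above the floor, 5 were on it. The positions of these genes relative to Sub1 were not examined. The gene order used here is that of a RefSeq assembly and was taken for neighbours alone.

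**Figure D5:**
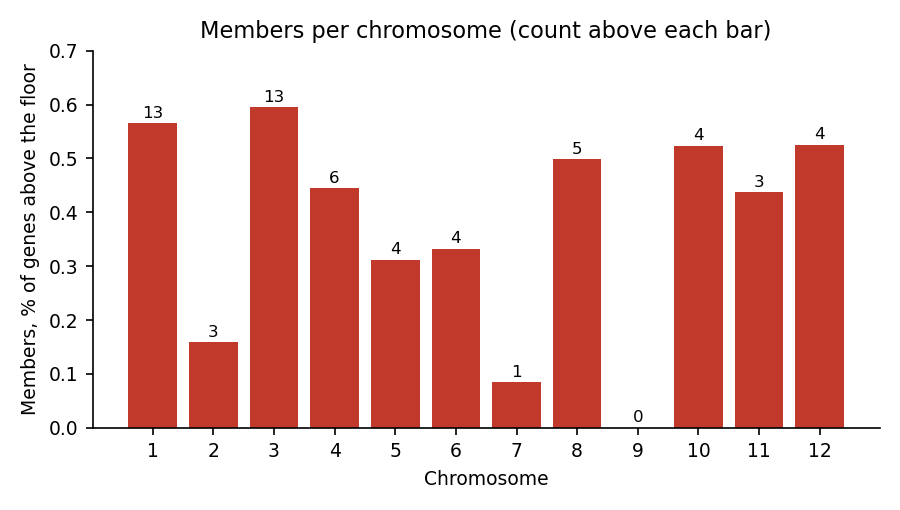
Members as a percentage of the genes above the level floor on each chromosome (bars), with the number of members above each bar. Chromosomes 1 and 3 have 13 members each and chromosome 9 has 0. The bar of chromosome 6 does not count the genes left out with the interval of gene numbers.

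Counting genes above the floor in their order, members within 10 genes of each other occurred at 2 places. On chromosome 4, LOC4336796 and LOC4336797 were next to each other, and LOC4336787 lay 8 genes away from the first. LOC4336796 was at 8.82 and 8.72 in M202 and at 10.43 and 10.35 in M202(Sub1), LOC4336797 at 8.06 and 8.66 against 9.85 and 9.75, and LOC4336787 at 8.27 and 8.70 against 9.82 and 10.71. The 7 genes between them differed by 0 to 0.24 at 1 day and, at 6 days, by -0.27 to 1.17. At 6 days LOC4336788 (1.09) and LOC4336793 (1.17) were also higher in M202(Sub1). Members were chosen for their differences at both times, so their standing above the genes between them is no separate result. On chromosome 6, LOC9266893 (8.39 and 8.49 in M202, 9.92 and 9.72 in M202(Sub1)) lay 9 genes from LOC4341874, the gene with the largest difference. The 8 genes between them differed by -0.25 to 0.39 at 1 day and by 0.04 to 0.33 at 6 days.

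Most members rest on a single probe set, 52 of 60. The probe sets of 9 members (15.0%) have names ending in _s_at, _x_at or _a_at, against 18.2% over all genes above the floor. Of these endings, _a_at marks transcripts of the same gene, and the others mark possible cross-hybridisation. The other 8 members have a second probe set each, of which 7 were above the floor. These measure the same contrast and are no independent support. Of the 8, 7 were higher in M202(Sub1) at both times and 4 reached 0.8 at both. For LOC4346226 the second set was at 7.42 and 7.43 at 1 day and gave 0.02 and 0.60.

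LOC9272592 on chromosome 3 is the exception. The probe set that put it in the group was at 7.61 and 7.67 in M202 and at 8.62 and 8.64 in M202(Sub1). Its second probe set was at 7.25 and 7.37 in M202 and at 6.09 and 6.04 in M202(Sub1), which is -1.16 and -1.33. Both sets were above the floor on all arrays and nearly flat in time, with opposite genotype differences of about the same size, so no direction can be given for this gene. How well any probe matches the sequence of each genotype was not tested.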

How the data were processed

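One-colour Affymetrix rice arrays of 4 shoot samples were used, grouped by the genotype and time labels. The deposited log2 values are RMA output, as the submitters' processing notes state. Which RMA version the authors ran, and on which arrays jointly, is not given in the sources used. RMA brings the arrays to a common distribution, so an overall shift in RNA amount would not show. Of 57258 probe sets without the AFFX controls, 22436 carry 1 gene in the platform annotation. Names, synonyms and gene order came from RefSeq assembly ASM3414082v1. Each gene was represented by its probe set of highest average signal. Differences were counted at an absolute log2 value of 1, which is 2-fold.

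The members and lists were chosen with earlier results of these data known. Genes were named by a rule: all members with a descriptive symbol, the 12 largest mean genotype differences, the 5 largest and 5 smallest time differences, the 5 highest and 5 lowest levels, 3 on each side of the limit, neighbours within 10 genes above the floor, and members with an opposing probe set. Genes named as relatives, as gap examples or as lying between neighbours are outside it and were chosen with their values seen. Relatives were taken by the symbol without its final number, instead of the letters before the first digit as planned, because that stem was a single letter for C3H37. Promoter motifs and proteins were planned but no sequences were used here. The rule was tested on simulated data. Python 3.11.15, numpy 2.4.6, pandas 2.3.3 and matplotlib 3.10.9 were used.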

Additional observations from a re-analysis of the deposited data

Results flagged for a closer look

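In 8 members the time difference had opposite signs in the genotypes, which was not tested and rests on 1 array per group. The share over all genes was not taken, so the count is no result about the members. Some of the differences were close to 0, such as 0.06 in M202 and -0.07 in M202(Sub1) for LOC4351869. The difference M202(Sub1) minus M202 of the time differences was 0.83 in LOC4349821 (-0.68 in M202 and 0.14 in M202(Sub1)), -0.70 in LOC4336797 (0.60 and -0.09), -0.53 in LOC4337936 and 0.52 in LOC4348044. It was smaller in LOC9266893 (-0.31), LOC4334529 (0.25), LOC4345609 (0.17) and LOC4351869 (-0.13). The gap limit keeps all of these under 1.

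Probe sets without a single gene in the annotation were not part of the group. Of 12232 of them above the level floor, 56 (0.458%) met the same limits and were higher in M202(Sub1), and 45 (0.368%) met them in the opposite direction. Of the 56, 18 lay under the floor in M202 at both times.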

How the results depend on the processing

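The number of members stayed between 41 and 80 under other floors, probe set choices, normalizations and gap limits (the gap limits were tried after the data had been seen). At a genotype limit of 0.6 there were 106, with 11 higher at 6 days in both genotypes, 22 on chromosome 1 and 20 on chromosome 3. At a limit of 1 there were 39, with 4 lower at 6 days in both genotypes, 8 on chromosome 1 and 7 on chromosome 3. With gaps under 0.5, 5 were lower and 2 higher at 6 days in both genotypes, and with no gap limit chromosome 9 held 2. The median time difference stayed below 0 in all settings run, with a range of -0.57 to -0.22 for M202 and of -0.35 to -0.19 for M202(Sub1). Of 408 values of single named members under the probe set and normalization alternatives, 398 kept their sign and moved by less than 1.5-fold. With the mean of all probe sets LOC9272592 reversed to -0.13 (genotype) and -0.0179 (time in M202(Sub1)), the latter also with quantile normalization (-0.0301). Small time differences also reversed in LOC4352495 (-0.0297 in M202(Sub1), quantile normalization) and LOC4334529 (0.0183 in M202, median centring). The time difference of LOC4346226 in M202(Sub1) reversed to 0.14 without probe sets named _s_at, _x_at or _a_at. The same setting took its genotype difference to 0.31 and its M202 time difference from -1.21 to -0.45, no longer 2-fold. With the mean of all probe sets the M202 time difference was 1.07 in LOC4332228 and -1.33 in CIPK12. The cause was not tested. No paired analysis was possible because each group has 1 array, and for the same reason no array could be left out. The promoter motif alternative was not run. Signal near background limits the 17 members under the floor on an M202 array.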

Other observations

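A further 20 genes were higher in M202(Sub1) by 0.8 or more at both times but with differences 1 or more apart. Of all genes above the floor, 3.85% were higher in M202(Sub1) by 1 or more at 6 days, against 0.778% at 1 day. Of the 20 genes, 19 had the larger difference at 6 days, so this is no trait of theirs alone. Among those with a descriptive synonym were ABA8OX1 (1.26 and 2.71), an abscisic acid hydroxylase, GRF6 (0.90 and 2.23), a growth-regulating transcription factor, CKX5 (1.01 and 2.07), a cytokinin-degrading oxidase, and the trehalose phosphatase gene TPP1 (0.91 and 2.44). GRF6 read 9.32 at 1 day and 7.67 at 6 days in M202, against 10.21 and 9.90 in M202(Sub1), and CKX5 read 7.51 and 6.08 against 8.51 and 8.15. ABA8OX1 was instead higher at 6 days, with 8.58 and 8.98 in M202 against 9.83 and 11.68 in M202(Sub1), as was TPP1, with 8.23 and 9.14 against 9.14 and 11.58. The exception was LOC4344943, with 3.76 and 3.37 in M202 against 12.20 and 10.35 in M202(Sub1), with differences of 8.43 and 6.98. Both of its M202 values were under the floor, so the sizes of these differences are uncertain. All genes of this section were named after their values were seen.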
